A study of Mus musculus with 72 samples.

Results

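The blood transcriptome of mice killed 1 day after whole-body x-rays was compared directly between the higher and the lower dose of the study, 4 Gy and 1 Gy. The arrays were chosen by their titles, X-ray_4Gy_day1 and X-ray_1Gy_day1, which gave 11 of the 72 arrays of the series, 5 after 4 Gy and 6 after 1 Gy. All animals were male C57BL/6 mice irradiated at 8 to 10 weeks of age. Each array held the globin-reduced RNA of blood taken from 1 mouse by cardiac puncture. The question was how gene expression 1 day after x-rays changed with dose. As background, the levels of the 5 sham-irradiated day 1 mice (Control_day1) were measured in the same way, and the comparison of the same doses was repeated with the 11 mice killed at day 7. With 5 and 6 mice, precision is limited, and p-values measure the spread between these mice.

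Blood RNA comes from a mixture of cells that differ in their sensitivity to radiation. Among leukocytes, resting B cells are known as the most sensitive to x-rays, T cells follow, and natural killer cells, monocytes and neutrophils are more resistant. Irradiated cells stabilize the transcription factor p53, which induces genes of cell cycle arrest such as Cdkn1a and genes of apoptosis such as Bax, while genes of mitosis follow the number of dividing cells.

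In these blood samples, transcripts of the liver stood apart between the doses. All 40 genes of a liver list were well above background on every 4 Gy array and 37 were so on every 1 Gy array. Their mean log2 level was 5.6 to 6.99 in the 4 Gy mice, 0.85 to 5.57 in the 1 Gy mice and −2.37 to 4.73 in the controls, so that the irradiated groups lay close but did not overlap. Over the 12 liver genes that passed the filters they overlapped, at 5.79 to 7.11 after 4 Gy and 1.58 to 5.87 after 1 Gy. The lowest liver levels after 1 Gy belonged to replicates 2 and 3, the only arrays of this comparison on their scan date. By contrast, 3 of 10 heart muscle genes were well above background on every 4 Gy array and 3 of 10 on none of the 11 arrays. The expected blood markers were present, with 22 of 22 B cell genes, 27 of 27 T cell genes and 15 of 15 platelet genes well above background on every 1 Gy array. The share of spots well above background was 53.55 to 64.62% on the 1 Gy arrays and 55.67 to 65.57% on the 4 Gy arrays. Scan date was nearly confounded with dose: 4 of the 1 Gy mice and 1 of the 4 Gy mice shared a date, and 3 of the former and 1 of the latter shared a slide. The comparison was therefore repeated with the liver level over those 12 genes as a covariate, with scan date as a block and without 1 Gy replicates 2 and 3. The liver level differed between the doses, so the fit with that covariate can remove part of a dose difference. With scan date as a block, the day 1 dose difference rested on the mice of the shared date, 1 after 4 Gy and 4 after 1 Gy. A call lost in that fit can therefore reflect low precision and does not tell a batch effect apart. Levels below are log2 intensities relative to the median detected probe of each array, and differences are 4 Gy minus 1 Gy on the log2 scale with their SE. All 5 controls were scanned on a date that none of the 11 irradiated mice shared. Irradiation and scan date therefore cannot be told apart where irradiated mice are set against controls.

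Most genes called between the doses were lower after 4 Gy, among them most B cell, class II and T cell genes tested. Of 10852 genes tested, 1911 (17.6%) were called at p below 0.001 and an FDR below 5%, 497 higher (4.58%) and 1414 lower (13%) after 4 Gy, and 5316 had an unadjusted p below 0.05. A difference of more than 4-fold was found for 271 of the lower and 121 of the higher genes. The median difference over all genes tested was 0.06. The predominance of falls depended on the p threshold. At an FDR below 5% alone, 2085 genes were higher and 2327 lower (52.7% lower), against 74% lower among the calls. For 1795 of the 1911 called genes the mice of both groups did not overlap, against 2568 (23.66%) of all genes tested. The calls were made on these same mice, so this separation adds no separate support. Pairs of arrays correlated with r of 0.9366 to 0.9867 within 1 Gy, 0.9466 to 0.9827 within 4 Gy and 0.8202 to 0.9698 between them. With the liver level as a covariate, 428 lower and 25 higher genes of the called set were called again.

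**Figure D1:**
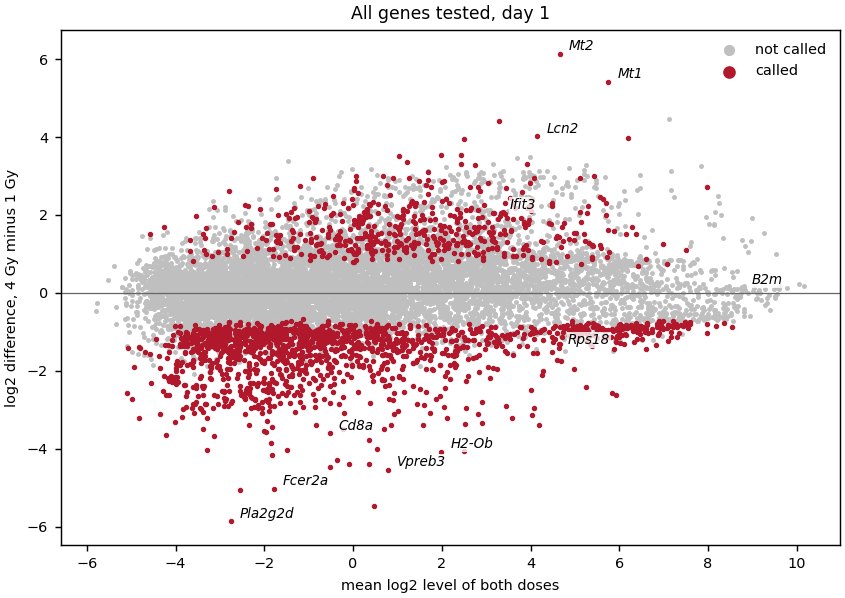
Each point is 1 of the 10852 genes tested; the x axis is its mean log2 level over both doses and the y axis its log2 difference, 4 Gy minus 1 Gy, at day 1. Called genes (1911, red) lie below zero more often (1414) than above it (497); Mt2 lies highest (6.14).

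B cell genes had the lowest median difference of the 42 lists, although under the normexp background correction the class II median (−2.65) lay below that of B cells (−2.44). Of 24 genes of the B cell list, 21 passed the filters and 19 fell after 4 Gy, against 13% of all genes called lower. None rose, and the median difference was −3.37. Cd79a, a signalling chain of the B cell receptor, was 10.3-fold lower (−3.37 ± 0.38). Fcer2a, the low-affinity IgE receptor CD23, read −4.24, −5.10, −4.13, −4.00 and −3.97 in the 4 Gy mice. In the 1 Gy mice it lay between 0.48 and 0.99 with a median of 0.75, and in the controls between 1.91 and 2.71. All 4 Gy mice were thus far below all 1 Gy mice, and all 1 Gy mice below all controls, a dose difference of −5.02 ± 0.23 (adjusted p = 7.19e-08). Its 4 Gy signal was well above background on 3 of 5 arrays.

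Vpreb3, which pairs with immunoglobulin chains in B cells, was −0.92, −1.54, −1.97, −2.16 and −0.83 after 4 Gy and 2.58 to 3.59 after 1 Gy (median 3.06), a difference of −4.54 ± 0.29. Cr2, the complement receptor CD21, fell by 4.47 ± 0.21 and Ebf1, a transcription factor that specifies the B lineage, by 4.15 ± 0.31. Ccr6, a chemokine receptor of B cells and some T cells, fell by 4.38 ± 0.30. A probe that the array files describe as the immunoglobulin delta chain (ENSMUST00000192250) fell by 5.46 ± 0.27. Cd79a was −0.22, 0.39, 1.94, 0.28 and 1.75 after 4 Gy and 3.74 to 4.51 after 1 Gy. The spread among 4 Gy mice was wider here than for Fcer2a, with replicates 3 and 5 highest, and the groups did not overlap. Cd22 (−0.97) and Btk (−0.56), the kinase of B cell receptor signalling, were the tested members that were not called.

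Other large falls were in genes outside the B cell list. Pla2g2d, a secreted phospholipase A2, was well above background on all 6 arrays after 1 Gy and on none after 4 Gy. With the main processing this bounds its fall at at least 53.7-fold. Over 29 alternatives its log2 difference ran from −5.98 to −1.65, and 1 of them lost the call. Its 4 Gy readings were −5.57, −6.47, −5.53, −5.63 and −5.21, against −0.14 to 0.58 after 1 Gy and 1.02 to 2.18 in the controls. Chst3, a sulfotransferase of proteoglycan chains, fell by 4.29 ± 0.25, from between 1.36 and 2.28 after 1 Gy to between −3.01 and −1.92 after 4 Gy.

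The mean level of the B cell list in single mice was −1.30, −1.30, −0.34, −1.01 and −0.08 after 4 Gy, 2.03 to 2.65 after 1 Gy (median 2.49) and 2.75 to 3.58 in the controls. The group medians were thus 3.50 in controls, 2.49 after 1 Gy and −1.01 after 4 Gy. In a bulk sample, fewer cells of a type and less RNA per cell cannot be told apart. The paper reports no significant change in the make-up of white blood cells after irradiation, and total blood counts within the normal range. Cell counts were not used here. With the liver level as a covariate 19 of 21 genes were called lower, without 1 Gy replicates 2 and 3 also 19, and with scan date as a block 18.

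**Figure D2:**
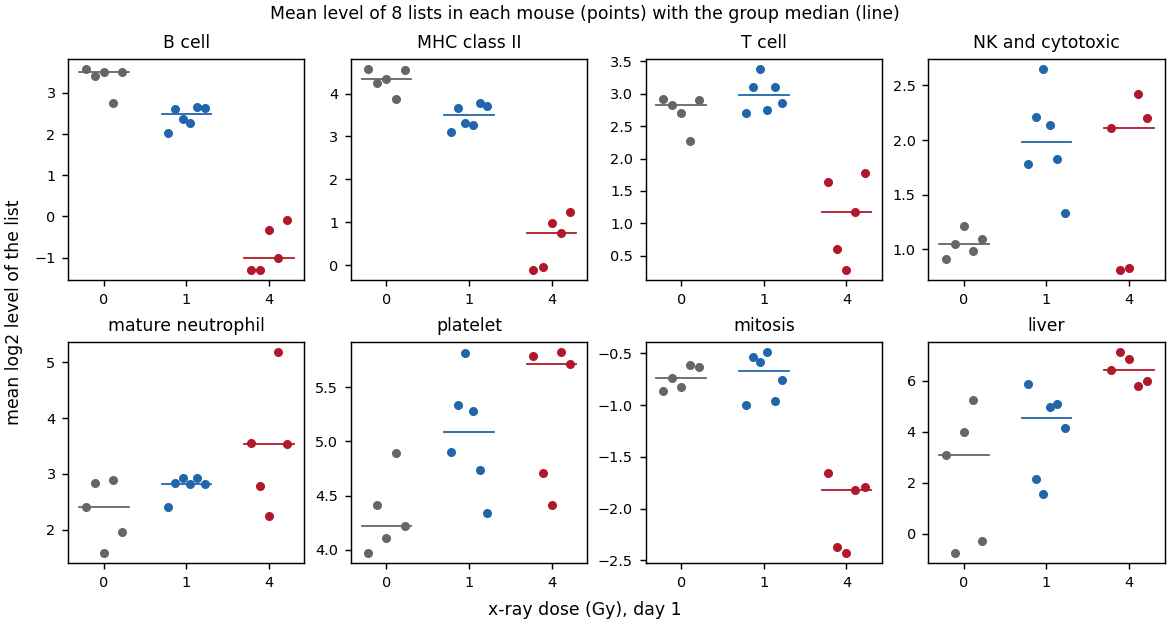
Mean log2 level of 8 gene lists (y axis) in each mouse (points) by x-ray dose in Gy (x axis) at day 1, with the group median as a line. The B cell, MHC class II, T cell and mitosis lists separate 4 Gy from 1 Gy without overlap, the NK, neutrophil and platelet lists overlap, and the liver list is highest after 4 Gy.

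Genes of MHC class II presentation, which B cells, monocytes and dendritic cells use to show peptides to helper T cells, fell together. All 10 list genes were tested, and all 10 fell (median −2.71), against 13% of all genes called lower. The groups did not overlap for any of the 10, nor for 23.66% of all genes tested. Within the list, the largest falls were in chains of molecules that edit peptide loading. H2-Ob was −0.53, −0.56, 0.10, −0.15 and 0.89 after 4 Gy and 3.32 to 4.39 after 1 Gy (−4.07 ± 0.29). H2-DMb2 fell by 4.04 ± 0.37 and H2-Eb2, a class II beta chain outside the list, by 5.05 ± 0.39; they were well above background on 3 and 2 of the 5 arrays after 4 Gy. The classical chains H2-Aa (−2.92 ± 0.30) and H2-Ab1 (−2.61 ± 0.38) and the master regulator Ciita (−2.80 ± 0.26) fell less far. H2-Ab1 remained bright, at 3.47 to 5.62 after 4 Gy against 6.47 to 7.68 after 1 Gy. Of the 10 genes, 9 were called with the liver level as a covariate and 10 with scan date as a block.

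Class II genes are known to share short promoter elements, among them a Y box with the letters of an inverted CCAAT box, and are shown because the whole group moved. The letters TGATTGG (either strand, in the 250 bases before the start) were found in 6 of the 7 class II genes that RefSeq promoters (GRCm38.p6) were given for and in 8.38% of all 27025 genes in that table. H2-DMa had no match. The 150 bases before the start of 4 of them are printed with the match in capitals, from chr17:34238755-34238904 (+), chr17:34145099-34145248 (+), chr17:34287824-34287973 (−) and chr17:34305717-34305866 (+), in that order.
H2-Ob: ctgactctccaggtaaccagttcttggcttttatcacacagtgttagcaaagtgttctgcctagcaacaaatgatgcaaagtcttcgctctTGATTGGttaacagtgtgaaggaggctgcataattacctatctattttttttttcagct
H2-DMb2: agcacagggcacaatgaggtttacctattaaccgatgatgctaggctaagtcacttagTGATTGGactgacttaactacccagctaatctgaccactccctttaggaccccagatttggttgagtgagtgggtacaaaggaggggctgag
H2-Aa: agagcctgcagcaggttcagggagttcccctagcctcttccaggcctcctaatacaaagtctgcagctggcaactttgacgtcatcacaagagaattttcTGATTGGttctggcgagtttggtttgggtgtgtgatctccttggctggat
H2-Eb1: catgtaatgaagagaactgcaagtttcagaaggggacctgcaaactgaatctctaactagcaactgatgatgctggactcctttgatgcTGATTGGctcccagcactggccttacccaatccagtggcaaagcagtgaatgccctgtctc
The match began 59, 92, 50 and 61 bases before the start, respectively. The match describes the letters of these windows, and binding was not measured. Of 15 class I and immunoproteasome genes, 3 passed the filters and none was called. B2m, the light chain of class I, was 8.48 to 9.26 after 4 Gy and 8.30 to 9.34 after 1 Gy (0.14 ± 0.24, adjusted p = 0.688).

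T cell genes fell as well, by a smaller median. Of 27 genes, 26 were tested, 22 fell and none rose (median −2.03), where 13% of all genes tested were called lower. Cd8a, the coreceptor of cytotoxic T cells, was −1.74, −2.51, −3.10, −2.64 and −1.65 after 4 Gy. After 1 Gy it was 0.81 to 1.52 (median 1.37) and in the controls 0.15 to 1.34, so that 1 Gy and control mice overlapped while all 4 Gy mice were lower (−3.60 ± 0.27). Ccr7, the receptor that guides naive T cells to lymph nodes, was 2.54, 1.49, 1.03, 1.70 and 3.15 after 4 Gy and 4.82 to 5.62 after 1 Gy (−3.21 ± 0.35). Dapl1, outside the list, fell by 4.40 ± 0.29.

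Other T cell genes fell by less. Cd3e, a chain of the T cell receptor complex, was 1.57 to 2.89 after 4 Gy and 3.78 to 4.67 after 1 Gy (−1.93 ± 0.28), and Il7r, the survival cytokine receptor of resting T cells, differed by −2.54 ± 0.37. Cd4 did not follow: it was 5.12, 6.33, 6.5, 6.22 and 5.30 after 4 Gy and 3.08 to 5.79 after 1 Gy, with a difference of 1.21 ± 0.44 (adjusted p = 0.0433) that was not called. Lat (−0.68) and Cd247 (−0.08) were not called either. The list mean was 1.64, 0.61, 0.28, 1.17 and 1.78 after 4 Gy, lowest in replicates 2 and 3, and 2.71 to 3.38 after 1 Gy. The count of 22 was less stable than that of the B cell list. It was 10 with the liver level as a covariate and 19 without 1 Gy replicates 2 and 3. With scan date as a block, which set 1 mouse after 4 Gy against 4 after 1 Gy, the median was −1.31.

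**Figure D3:**
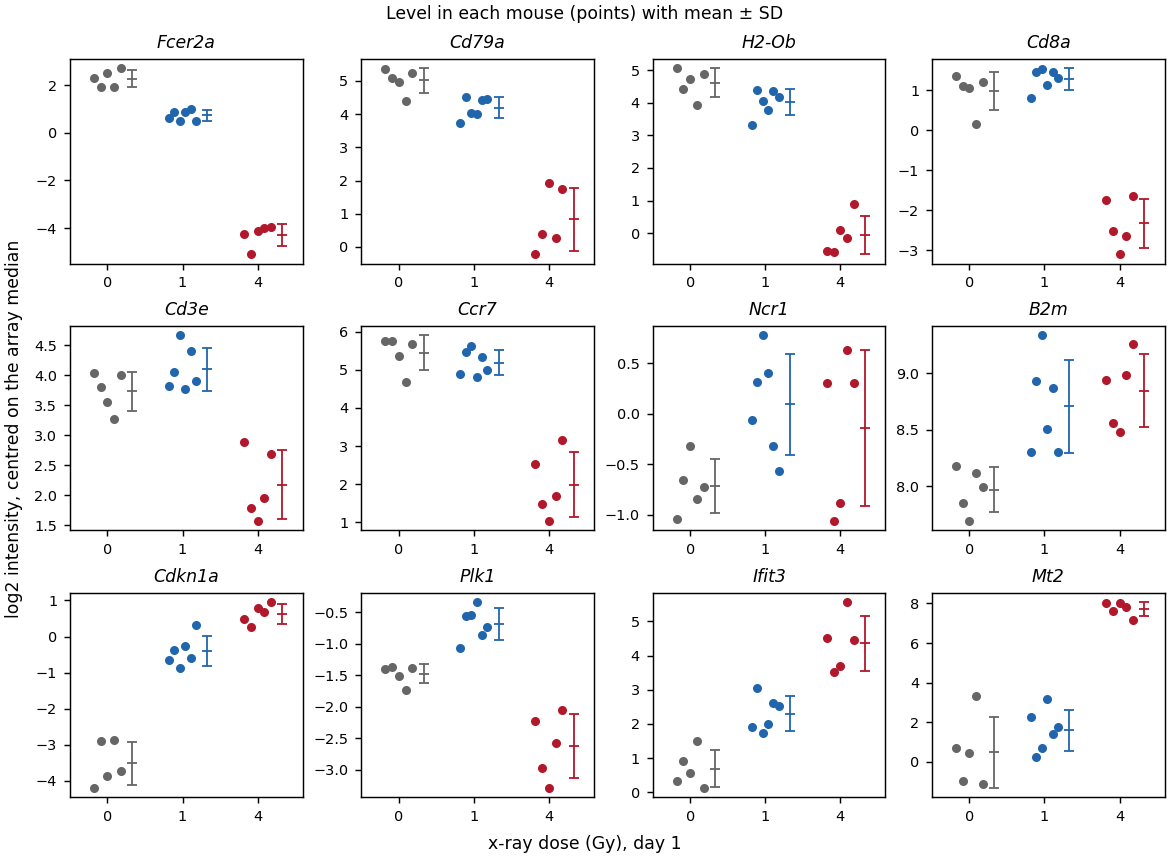
Level of 12 genes in each mouse (points; y axis, log2 intensity relative to the array median) by x-ray dose in Gy (x axis; 0 is sham irradiation), with mean ± SD beside the points. The B cell, class II and T cell genes drop between 1 and 4 Gy, Ncr1 and B2m overlap, Cdkn1a lies above the controls at 1 Gy, and Mt2 is at 7.17 to 8.02 in all 4 Gy mice.

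Natural killer and cytotoxic genes were not called in either direction. All 16 genes were tested, with a median of −0.28 and differences of −0.86 to 0.32. Ncr1, the NK receptor NKp46, was 0.31, −1.06, −0.88, 0.63 and 0.31 after 4 Gy and −0.56 to 0.78 after 1 Gy (−0.23 ± 0.35, adjusted p = 0.64). Klrb1c, the NK1.1 receptor, differed by −0.38 ± 0.35, and Gzmb, the granzyme of killer cells, by 0.32 ± 0.36. Both irradiated groups lay above the controls in Gzmb, at 2.11 to 3.85 after 4 Gy, 2.05 to 3.39 after 1 Gy and 1.13 to 1.46 in the controls. Replicates 2 and 3 of 4 Gy were the low mice of this list, at 0.81 and 0.83, and the other 3 lay at 2.11 to 2.42. The median turned to 0.32 with the liver level as a covariate and to 0.41 with scan date as a block, still with no gene called. The difference between the lymphocyte classes was not tested.

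Myeloid and platelet genes overlapped between the doses. None of 16 mature neutrophil genes, 9 neutrophil granule genes, 13 monocyte genes and 15 platelet genes that were tested was called, with medians of 0.72, 0.31, −0.28 and 0.20. The alarmins S100a8 (0.61 ± 0.41) and S100a9 (0.41 ± 0.26), the elastase Elane (1.02 ± 0.61) and the antimicrobial peptide Camp (1.22 ± 0.60) were not called. The platelet chemokines Pf4 and Ppbp each differed by 0.08. Among monocyte genes, Ccr2 differed by −0.36 ± 0.29 and Cx3cr1 by −1.13 ± 0.37 (adjusted p = 0.0256), which was not called. Of 9 dendritic cell genes tested, 3 fell, against 13% of all genes called lower. Among them were Ccr9 (−2.10 ± 0.27) and Flt3 (−1.45 ± 0.33), whose product drives dendritic cell development. Of the list, 1 was called without 1 Gy replicates 2 and 3, and Flt3 turned to 0.33 under the normexp background correction.

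**Figure D4:**
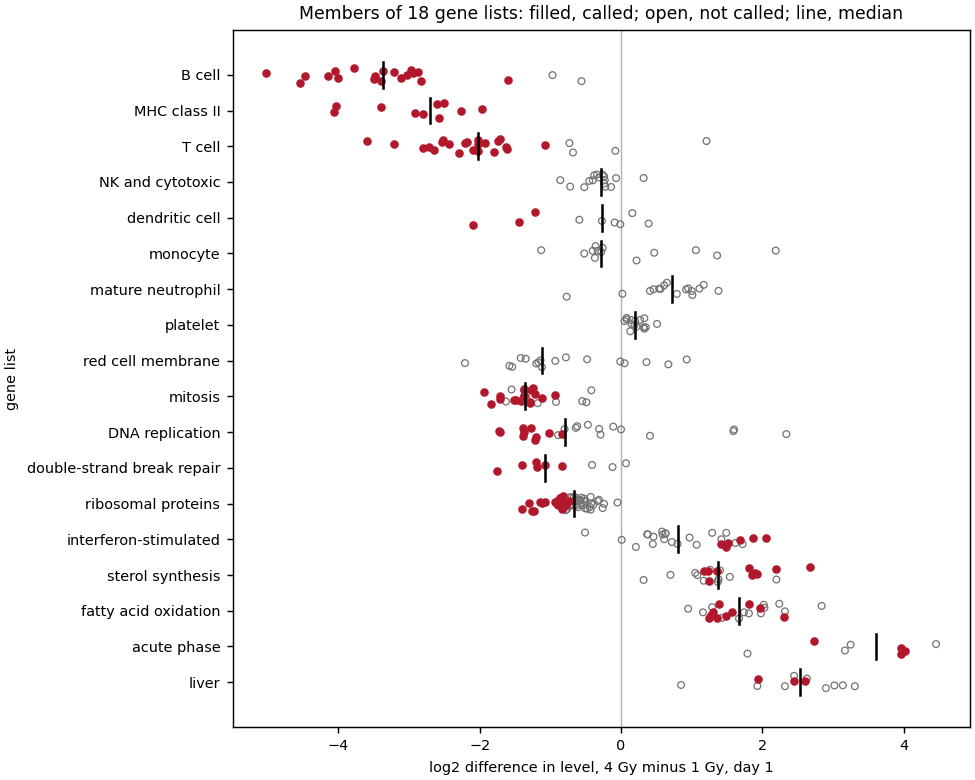
Each point is a gene of 1 of 18 lists (y axis) at its log2 difference, 4 Gy minus 1 Gy, day 1 (x axis); filled points were called, open points were not, and the line is the list median. The B cell (−3.37), class II (−2.71) and T cell (−2.03) medians lie left of NK (−0.28) and platelet (0.20), and the liver (2.53) and acute phase (3.61) medians lie furthest right.

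A minority of the p53 targets tested were called between the doses. Of 16 genes of arrest and feedback, 10 passed the filters, 2 rose and 1 fell (median 0.35), and of 14 genes of apoptosis, 6 passed and 1 rose, against 4.58% of all genes called higher and 13% called lower. Cdkn1a, the cell cycle inhibitor p21, was 0.48, 0.26, 0.78, 0.68 and 0.96 after 4 Gy, −0.87 to 0.32 after 1 Gy and −4.20 to −2.87 in the controls. The difference between the irradiated groups was 1.04 ± 0.23 (adjusted p = 0.00429) with 1 overlapping pair of readings, 0.26 and 0.32, while every irradiated mouse was above every control. Bax, a pore-forming inducer of apoptosis, had the same mean of 3.64 at both doses (0.01 ± 0.22) and 2.67 in the controls. Plk2, a stress-induced kinase, rose by 2.00 ± 0.32 and Ei24, an apoptosis-associated membrane protein, by 1.18 ± 0.23, whereas Sesn1, a stress-response sestrin, fell by 1.20 ± 0.22. Mdm2 did not pass the filters. Cdkn1a lost its call in 23 of 31 alternatives, among them without 1 Gy replicates 2 and 3 (adjusted p = 0.0236). With the liver level as a covariate and with scan date as a block no gene of either p53 list was called.

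Several repair genes and Trp53, the gene of p53 itself, fell, where 13% of all genes tested were called lower. Of 9 damage-induced repair genes 4 were tested and 2 fell, with a median (−0.90) that ran from −1.0 to 0.05 over the centring alternatives. Ddb2, a damage sensor of nucleotide excision repair, was −1.61 to −1.14 after 4 Gy and −0.21 to 0.08 after 1 Gy (−1.37 ± 0.16), and Rrm2b, a ribonucleotide reductase subunit, fell by 1.30 ± 0.22. Trp53 was −3.27 to −2.53 after 4 Gy and −1.82 to −0.96 after 1 Gy (−1.40 ± 0.21). Of the genes of double-strand break repair and damage signalling, 9 of 27 were tested and 6 fell (median −1.08). Of 31 genes of mismatch, base and nucleotide excision repair, 11 were tested and 5 fell, with Mutyh at −1.76 ± 0.24 and Exo1, a nuclease well above background on no 4 Gy array, at least 4.23-fold lower. Under the normexp background correction Rrm2b turned to 0.41, Mutyh to 0.23 and Exo1 to 0.42, and none was called. Bcl2, which protects lymphocytes from apoptosis, was −0.63 to 1.11 after 4 Gy and 1.52 to 2.34 after 1 Gy (−1.50 ± 0.32), and Bcl2l1 differed by −0.21 ± 0.41. With scan date as a block no gene of the repair or BCL2 lists was called, nor was Trp53 (−1.10), and Bcl2 was at −0.51. With the liver level as a covariate Bcl2 (−0.99) was not called.

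Genes of dividing cells were lower after 4 Gy. Of 35 mitosis genes, 26 were tested and 18 fell, against 13% of all genes called lower. None rose, and all 26 differences were negative (median −1.35). Plk1, a kinase of mitotic entry, was −2.23, −2.98, −3.29, −2.58 and −2.05 after 4 Gy, −1.07 to −0.34 after 1 Gy and −1.73 to −1.37 in the controls (−1.94 ± 0.25). The 1 Gy mice were thus all above the controls and the 4 Gy mice all below them. Top2a, the topoisomerase of replicating cells, differed by −1.84 ± 0.32 and was well above background on 2 of 5 arrays after 4 Gy, with 0.50 under the normexp correction. Ccna2, the S phase and mitotic cyclin, was −2.96 to −1.07 after 4 Gy, −1.12 to 0.00 after 1 Gy and 0.33 to 1.53 in the controls (−1.48 ± 0.34). It lost its call in 17 of 31 alternatives. Among these were the liver level as a covariate (−0.75) and the fit without 1 Gy replicates 2 and 3 (−1.21). The other cell cycle genes in the naming rule kept the same order of group means but were not called: Nusap1 (−1.63 ± 0.40), Cdc25b (−1.55 ± 0.41), Ube2c (−1.34 ± 0.44), E2f2 (−0.89 ± 0.37) and Fzr1 (−0.42 ± 0.18).

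Of 30 replication genes, 23 were tested and 10 fell, none rose, and 4 differences were positive (median −0.80), with the polymerase subunit Pold1 at −0.80 to −0.22 after 4 Gy and 0.82 to 1.36 after 1 Gy (−1.73 ± 0.18) and the helicase subunit Mcm5 at −1.71 ± 0.21. Of 8 E2f and pocket protein genes tested, 1 fell, a share close to the 13% of all genes called lower. It was Rbl1 (−1.56 ± 0.27, but 0.57 under the normexp correction), and E2f1 differed by 0.16 ± 0.18. Of 74 cytosolic ribosomal protein genes, 55 were tested and 22 fell, and all 55 differences were negative (median −0.67). Rps18 was 3.58 to 4.08 after 4 Gy and 5.15 to 5.48 after 1 Gy (−1.40 ± 0.17), and Rps7 fell by 1.30 ± 0.18. The called counts shrank with the liver level as a covariate, to 8 for mitosis, 3 for replication and 5 for ribosomal proteins. With scan date as a block they were 0, 1 and 0, with medians of −0.96, −0.73 and −0.53.

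A minority of interferon-stimulated genes rose after 4 Gy. Of 31, 27 were tested, 6 rose and none fell (median 0.80), against 4.58% of all genes called higher. Ifit3, an antiviral protein induced by interferon, was 4.52, 3.53, 3.70, 5.57 and 4.45 after 4 Gy, 1.72 to 3.05 after 1 Gy and 0.13 to 1.51 in the controls (2.05 ± 0.36, adjusted p = 0.00122). Every 4 Gy mouse was above every 1 Gy mouse, and every 1 Gy mouse above every control. Oasl1, a regulator of the same response, rose by 1.87 ± 0.39, with 4 Gy replicate 4 highest at 6.58. The best-known member, Isg15, differed by 0.01 and Mx1 by 0.38, and neither was called. Slfn4 (2.31 ± 0.43) and Slfn3 (2.00 ± 0.44), Schlafen genes of myeloid and lymphoid cells, rose among 6 tested of their family. Tlr9, the receptor for unmethylated DNA, rose by 1.56 ± 0.34 whereas Tlr2 differed by 0.77 ± 0.43. Slfn3 lost its call in 17 and Tlr9 in 14 of 31 alternatives. Neither was called with the liver level as a covariate (2.32 and 0.79) or without 1 Gy replicates 2 and 3 (1.98 and 1.33). With the liver level as a covariate 3 of the 27 interferon-stimulated genes were called, without 1 Gy replicates 2 and 3 it was 5, and with scan date as a block none.

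The largest rises were in the metallothioneins Mt2 and Mt1, small proteins that bind zinc and copper and are induced by metals, glucocorticoids and stress. Mt2 was 8.02, 7.62, 8.0, 7.83 and 7.17 after 4 Gy, 0.26 to 3.15 after 1 Gy (median 1.57) and −1.12 to 3.31 in the controls. The 4 Gy mice were close to each other and far above every other mouse, while 1 Gy and control mice overlapped (6.14 ± 0.44, 70.8-fold, adjusted p = 2.66e-06). Mt1 was 8.19 to 8.68 after 4 Gy and 1.39 to 4.46 after 1 Gy (5.42 ± 0.53, 42.8-fold). An unclassified cDNA clone (ENSMUST00000107229) rose by 4.41 ± 0.29. All 3 were called again with the liver level as a covariate; Mt2 then differed by 5.02 and Mt1 by 4.05. On the shared slide Mt2 differed by 5.92 and Mt1 by 4.63.

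Both genes lie next to each other on chromosome 8, and their promoters are known for metal response elements. The letters TGCACNC or TGCGCNC, on either strand, stood before the start of both genes and of 23.8% of all genes in the RefSeq table. The 250 bases before the start (GRCm38.p6, chr8:94178839-94179088 and chr8:94172368-94172617, both +) are shown with matches in capitals.
Mt1: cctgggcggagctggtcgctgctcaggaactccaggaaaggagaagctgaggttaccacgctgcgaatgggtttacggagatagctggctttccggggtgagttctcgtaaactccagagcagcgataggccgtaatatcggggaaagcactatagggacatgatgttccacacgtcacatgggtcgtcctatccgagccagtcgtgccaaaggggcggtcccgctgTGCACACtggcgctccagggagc
Mt2: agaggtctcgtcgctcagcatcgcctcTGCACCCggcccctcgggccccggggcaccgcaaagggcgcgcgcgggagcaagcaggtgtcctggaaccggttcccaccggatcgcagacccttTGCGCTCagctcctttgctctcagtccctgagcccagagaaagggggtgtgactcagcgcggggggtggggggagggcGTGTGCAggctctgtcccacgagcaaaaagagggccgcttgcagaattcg
Mt1 held 1 match and Mt2 held 3 in these windows. Letters such as these are frequent, and no binding was measured.

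Of 17 acute phase genes, whose products the liver secretes in inflammation, 8 passed the filters and 4 rose after 4 Gy (median 3.61). Of all genes tested, 4.58% were called higher. Lcn2, an iron-withholding protein made by liver and neutrophils, was 5.08, 6.77, 6.88, 7.34 and 4.71 after 4 Gy, 1.38 to 2.84 after 1 Gy and 0.96 to 3.90 in the controls (4.02 ± 0.48). It was called again with the liver level as a covariate (3.65). Fgl1, a secreted hepatic protein, differed by 3.96 ± 0.71, and by 1.53 with that covariate, where it was still called. Itih4, an inhibitor heavy chain in plasma, was 7.29 to 8.98 after 4 Gy and 0.96 to 6.66 after 1 Gy (3.97 ± 0.89) and was not called with that covariate. Saa1, serum amyloid A, reached 8.52 to 9.82 after 4 Gy but spanned 0.05 to 7.39 after 1 Gy, and its difference of 4.46 ± 1.10 was not called. The remaining large rises were in Ang4 (3.51 ± 0.77), a secreted ribonuclease with near-identical family members, Tm4sf4 (3.35 ± 0.77), Oaf (3.32 ± 0.78) and Serpina10 (3.30 ± 0.75), none of which was called with the liver level as a covariate.

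Some genes of several metabolic lists rose after 4 Gy, as some liver genes did, and the part of liver RNA was not tested beyond the fits given. For comparison, 4.58% of all genes tested were called higher. Of the liver genes themselves, 12 of 40 passed the filters and 3 rose (median 2.53), among them Tat (2.61 ± 0.56), which degrades tyrosine, and Ass1 (2.45 ± 0.57) of the urea cycle. In fatty acid oxidation and ketone synthesis 10 of 23 tested genes rose (median 1.67), with Cyp4a10 at 2.31 ± 0.51 and Hadh at 1.97 ± 0.45. In sterol synthesis 10 of 21 rose (median 1.37), with Tm7sf2 at 2.68 ± 0.61 (4.14 to 5.27 after 4 Gy against 0.26 to 3.53 after 1 Gy). Among glutathione transferases 6 of 17 rose and 1 fell (median 2.21), led by Gstt3 (2.90 ± 0.63) and Gstm2 (2.85 ± 0.62). Sod1, the cytosolic superoxide dismutase, rose by 1.25 ± 0.28 and Gclc, the limiting enzyme of glutathione synthesis, by 1.31 ± 0.29, 2 of 3 among 19 antioxidant genes. Of 38 oxidative phosphorylation genes tested 8 rose (median 0.92), with Uqcrq at 1.61 ± 0.38 and Ndufv1 at 1.55 ± 0.35. Acsl3 rose by 1.08 ± 0.23 and Acsl1 differed by 1.48 ± 0.41. With the liver level as a covariate, no gene of the fatty acid, sterol, antioxidant or oxidative phosphorylation lists was called. The liver list could not be tested this way, because the covariate was the mean of its own 12 genes. Without 1 Gy replicates 2 and 3 the counts for liver, fatty acid, sterol, antioxidant and oxidative phosphorylation genes were 4, 0, 4, 1 and 0. Among glutathione transferases no gene was called higher with the covariate, where Gstt3 was at 0.85 and Gstm2 at 0.76, and 4 were without those replicates. No proteasome gene among 11 tested was called (median 0.63). Of lists for other tissues, 1 of 4 endothelium genes tested rose, Egfl7 (2.37 ± 0.50), while Pecam1 differed by 0.06. Egfl7 was not called with the liver level as a covariate (0.86) or without 1 Gy replicates 2 and 3 (1.85). With scan date as a block it differed by 1.82. Before the filters, mean levels after 1 and 4 Gy were −4.01 and −1.73 for Cdh5, −4.4 and −3.03 for Tie1, and 3.33 and 2.84 for Kdr. No tested gene of the heart, skeletal muscle, lung or fat lists was called, Fabp4 of fat at −0.03 ± 0.60.

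Genes of the red cell skeleton and of reticulocytes were not called. None of 17 membrane and blood group genes or 13 genes of reticulocyte maturation was called, with medians of −1.12 and −0.59. Ank1, an anchor of the red cell skeleton, differed by −2.21 ± 0.62 (adjusted p = 0.0136). Alas2, the erythroid enzyme of heme synthesis, was 9.14 and 9.44 on average after 4 and 1 Gy (−0.30 ± 0.29), while Alas1, the form of the liver and other tissues, rose by 2.30 ± 0.51. Bnip3l (−0.77 ± 0.36) and Ube2o (−0.68 ± 0.38), which clear organelles and proteins from reticulocytes, were not called. Gata1 differed by 0.24 ± 0.41, and Lmo2, an erythroid and stem cell cofactor, fell by 1.38 ± 0.25. Slc40a1, the iron exporter ferroportin, rose by 1.68 ± 0.25, and Tfrc, the transferrin receptor, differed by −0.56 ± 0.41. The median of the membrane list turned to 0.02 with the liver level as a covariate and to 0.08 with scan date as a block. Alas1 (0.67), Lmo2 (−0.75) and Slc40a1 (1.45) were not called with the liver level as a covariate. Their differences with scan date as a block were 1.99, −0.82 and 1.24. Without the 1 Gy mice that had a scan date of their own, Alas1 (1.61) was not called, whereas Lmo2 (−1.12) and Slc40a1 (1.54) were.

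The single 4 Gy mouse on the slide that also held 3 of the 1 Gy mice showed the direction of the whole comparison in all but 1 of the called genes, which had no reading there. It lay below all 3 for 99.79% of the lower genes and above all 3 for 98.99% of the higher genes, against 31.85% and 47.18% of all genes tested; it is itself among the 5 mice that chose these genes. On this slide the median difference was −4.22 for B cell, −3.60 for class II, −1.27 for T cell, 0.43 for NK and 1.59 for liver genes. With only the mice of the shared date, 234 genes were called, 223 of them lower, where the lone 4 Gy mouse was taken to vary like the 1 Gy mice.

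At day 7 the same dose difference had another shape, measured in other mice. Here 1036 genes (9.55%) were called between 4 Gy and 1 Gy, 434 higher and 602 lower. B cell genes were still lower after 4 Gy, 20 of 21, with a median of −2.02. T cell genes were not, with 1 of 26 called and a median of −0.22. Of the genes called at day 1, 12.14% were called at day 7, which is 22.39% of the day 7 calls, and 227 of these 232 had the same direction.

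The change of the dose difference from day 1 to day 7 was tested directly, and 952 genes (8.77%) were called, 657 with a more positive difference at day 7. Among them were 18 of 26 T cell, 8 of 10 class II, 4 of 21 B cell and 19 of 26 mitosis genes, and no NK gene. Plk1 went from −1.94 at day 1 to 1.49 at day 7, a change of 3.43 (adjusted p = 0.000586), and Cd8a from −3.60 to −1.24, a change of 2.36. Mt2 went from 6.14 to 0.94, a change of −5.20 (adjusted p = 0.000759). Vpreb3 differed by −4.54 and −4.22, a change of 0.32 that was not called. Centring changed the day 7 signs. With arrays centred on spike-in controls the median over all genes moved from −0.16 to 1.06 and the calls became 4870 higher and 37 lower. The class II and T cell medians turned to 0.42 and 0.86, and the B cell median was −0.92. The change of the dose difference was then called for 3145 genes upward and 5 downward, with scan date as a block for 25 and 16.

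**Figure D5:**
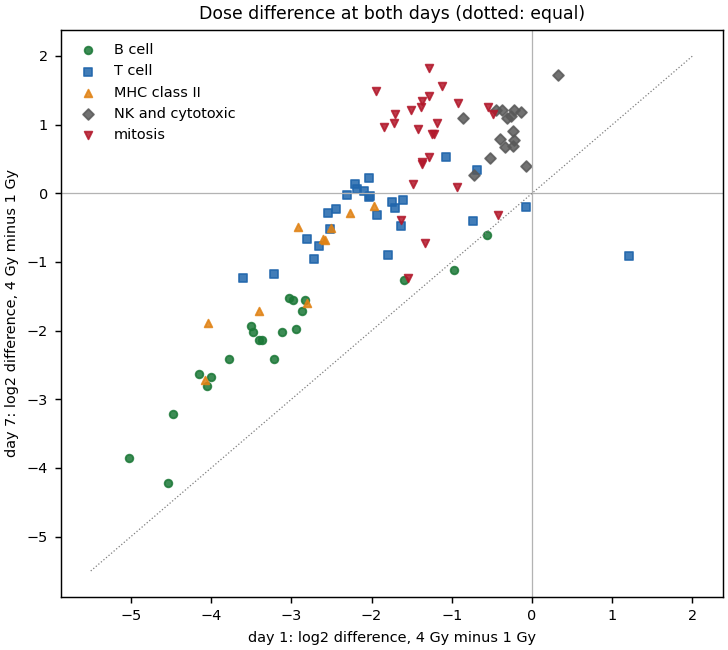
Each point is a gene of 5 lists at its log2 difference, 4 Gy minus 1 Gy, at day 1 (x axis) and day 7 (y axis, other mice); the dotted line marks equal differences. B cell genes lie lowest on both axes, most T cell genes lie near 0 at day 7, and most mitosis genes lie below 0 at day 1 and above it at day 7.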

How the data were processed

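Each array held Cy3-labelled RNA from the blood of 1 mouse on an Agilent whole mouse genome array. Per the submitters' processing notes the authors extracted the scans with Agilent Feature Extraction 12.0.2, and the deposited files give background-corrected intensities with flags, not normalized between arrays. Of 44397 spots, 43020 carry 39429 probes, and 28330 probes were named through their RefSeq accession. The series table of processed values was not used here.

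As in the study's methods, intensities were log2-transformed and outlier spots left out. The median was subtracted within arrays, taken over probes flagged in less than 25% of the 56 arrays of days 1 and 7 (19808 probes). Probes that left their median by 1.5-fold in 20% of arrays or more were kept (12540), and the brightest probe stood for a gene. Groups follow the sample titles. Groups were compared with limma 3.58.1 in R 4.3.3, 2-sided, with calls needing p under 0.001 together with an FDR (Benjamini-Hochberg) under 5%. Of the values of the 11 arrays, 189 outliers were missing, in 130 genes. All adjusted p-values are from limma. The samples are separate mice. The script was tested on simulated data, figures were drawn with matplotlib 3.10.9 in Python 3.11.15, and intervals cover the spread between mice only.

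The 42 gene lists, the members and the tests were chosen with earlier results of these data known. Named genes are the 10 largest called rises and the 10 largest called falls whose groups did not overlap, up to 2 genes of each list (the called members with the largest differences, otherwise key members), 9 chosen p53 target and cell cycle genes where they passed the filters, and the 5 largest rises and 5 largest falls also called with the liver level as a covariate. Named outside this rule, after their values were seen, were Cd79a, Cd22, Btk, H2-Aa, H2-Ab1, H2-Eb1, H2-DMa, Ciita, Cd3e, Il7r, Cd4, Lat, Cd247, Gzmb, Isg15, Mx1, Saa1, Cdh5, Tie1 and Kdr. Some genes that the rule names are not reported here. A bound ("at least") sets the mean of the brighter group against that of the other group. There, readings under the array's lowest signal well above background were raised to that signal, and higher readings entered as they were. Alternatives covered background correction, centring, filters, probe choice, test, blocks, covariate and left-out mice. Leaving out 1 Gy replicates 2 and 3, and keeping only the shared scan date, were chosen after seeing the data.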

Additional observations from a re-analysis of the deposited data

Results flagged for a closer look

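Among 272 groups of 5 or 6 mice, 10 held a mouse far from the others, and chance flags about 1 in 20 groups. After 4 Gy, replicate 4 was highest for Camp (2.48), Slc40a1 (4.67), Oasl1 (6.58) and Tlr2 (2.12) and lowest for Gstt3 (1.64). Replicate 2 was lowest for Fcer2a (−5.10), and replicate 5 highest for the immunoglobulin delta chain probe ENSMUST00000192250 (−1.51). After 1 Gy, replicate 1 was lowest for Cx3cr1 (0.59) and for the mean level of the mature neutrophil list (2.40) and highest for Acsl1 (4.82).

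The dose difference itself changed between day 1 and day 7 for 28 of the 94 named genes in limma's interaction test, given here as day 7 minus day 1 on the log2 scale. It became less positive or negative for Mt2 (−5.20), the clone ENSMUST00000107229 (−4.49), Mt1 (−4.23), Lcn2 (−2.47), Acsl1 (−2.39), Alas1 (−2.18) and Tlr9 (−1.95). Among lymphocyte and class II genes the change was 3.23 for Dapl1, 2.36 for Cd8a, 2.27 for Ccr6, 2.15 for H2-DMb2, 2.04 for Ccr7, 1.91 for Bcl2, 1.53 for Ebf1, 1.49 for ENSMUST00000192250 and 1.26 for Cr2. Among genes of division, replication and repair it was 3.43 for Plk1, 2.81 for Top2a, 2.68 for Mcm5, 1.87 for Rbl1, 1.61 for Ccna2, 1.34 for Trp53, 1.33 for Pold1, 1.23 for Ddb2 and 1.15 for Mutyh. Rps18 changed by 0.95. The fitted changes of Pla2g2d (1.85) and Exo1 (2.88) rest on day 1 readings that were not well above background on any 4 Gy array, so their sizes are not measured.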

How the results depend on the processing

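The 1911 genes called at day 1 became 412 with normexp background correction, 1012 with spike-in centring, 4412 at the FDR threshold alone, 120 with scan date as a block and 464 with the liver level as a covariate. They were 1013 without 1 Gy replicates 2 and 3 and 234 on the scan date of both doses alone, both chosen after seeing the data. Leaving out 1 mouse gave 1322 to 2072, of which 188 to 780 were higher. The 1036 genes of day 7 became 373 (normexp), 4907 (spike-in), 2795 (FDR alone) and 689 (scan date), and 659 to 1317 without 1 mouse, with 659 without 1 Gy replicate 2 and 689 without 1 Gy replicate 4. The 952 genes whose dose difference changed between days became 4 (normexp), 3150 (spike-in), 2150 (FDR alone) and 41 (scan date), and 717 to 1059 without 1 mouse. With replicate number as a block the counts were 474, 426 and 358. The numbers name separate mice, and same-numbered day 1 mice had correlations of −0.622 to 0.11 in their deviations, none correlating best with its own number. The sample titles give no pairing beyond the number. These correlations cannot show whether same-numbered mice were handled together, because liver level and scan date also differed within the groups. Of 94 named genes, 6 reversed, all with normexp: Rrm2b (0.41), Flt3 (0.33), Top2a (0.50), Rbl1 (0.57), Exo1 (0.42) and Mutyh (0.23). The cause was not tested. With scan date as a block 48 named genes lost their call. Over 31 settings the B cell list had 17 to 21 lower genes, class II 9 to 10, T cell 1 to 23, mitosis 0 to 23, and no NK gene was called. Signal near background limits Pla2g2d and Exo1 to bounds, which apply to the main processing only.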
